A study of Homo sapiens with 4 samples.

Results

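RAB proteins are small GTPases that mark the membranes of the secretory and endocytic pathways. In the GTP-bound form each RAB recruits effectors such as tethers and motors, and exchange factors and GTPase-activating proteins turn it on and off. A geranylgeranyl anchor holds RABs in the membrane, and GDI proteins extract the inactive form for reuse. In an intestinal epithelial cell such as HCT116 these proteins serve the flow from the ER through the Golgi, the recycling of receptors, and delivery to lysosomes.

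The 51 RAB genes described here were taken from the 35820 rows of the deposited count table by symbol, the letters RAB followed by a number and at most 1 letter from A to D. The symbol pattern matched 53 rows, from which 1 pseudogene and 1 further gene that the rule leaves out were removed. The family was chosen by the lower estimated count of RAB15 in knockout cells, so the comparison of RAB15 between genotypes is a description and carries no test. Of the 51 genes, 39 passed the filter on low counts, and RAB15 passed it through the WT libraries alone.

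HCT116 is a human colon cancer cell line. The study compared 2 libraries of clone E2-4, in which CRISPR with a guide against exon 2 of TOP3B was used to knock out this gene (KO), with 2 libraries of wild-type HCT116 cells (WT). TOP3B is a topoisomerase of both DNA and RNA, and the stated aim was its role in R-loops and global transcription. There was 1 KO clone, so clone and genotype cannot be told apart, and no added agent is named for either group. Ribosomal RNA was depleted from total RNA, and reads were summarised by the authors as estimated counts per gene.

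The KO libraries held 10450048 and 16143634 estimated counts, against 15141919 and 11750516 in the WT libraries. WT replicate 1 stood apart from the other libraries, with a TMM scaling factor of 0.858 against 1.04 to 1.06. TOP3B itself had 43.9 and 54.7 CPM in KO and 57.1 and 66.5 CPM in WT (CPM, estimated counts scaled to the size of the library), which gave -0.32 as log2 fold change (SE 0.17; edgeR adjusted p = 0.522). The labels do not describe the edit beyond its exon, and a count over the whole gene is no test of the edit. Summed over the 10 colon epithelial markers with a row, the level was 1522 and 1452 CPM in KO and 2584 and 2117 CPM in WT, with KRT20 at 0 in all libraries. Markers of fibroblasts, endothelium and leukocytes each summed to between 0 and 3.16 CPM per library. 7 neuronal markers summed to 26.4 and 27.8 CPM in KO and to 33.5 and 29.3 CPM in WT. The part of these marker levels in the RAB values was not tested.

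The summed level of the 51 genes was 1263 and 1265 CPM in KO and 1723 and 1350 CPM in WT. The KO libraries were close to each other and below both WT libraries, and WT replicate 1 was the highest. RAB11A, RAB6A and RAB1A made up 53.3% of the summed level, averaged over libraries. CPM is not divided by gene length, so long genes weigh more and this share does not rank transcript numbers. The lengths implied by the deposited RPKM were 47.7, 75.5 and 48.3 kb for RAB11A, RAB6A and RAB1A. Without these 3 genes the sum was 615 and 596 CPM in KO and 771 and 633 CPM in WT. The 39 tested RAB genes had a median log2 fold change of -0.19, against -0.01 over all tested genes, and the RAB median was -0.18 without RAB15. A log2 fold change below 0 was found in 26 of the 39, and in 25 of 38 without RAB15, where 51.5% of all tested genes had one. In 12 RAB genes both KO libraries were under both WT libraries, or in 11 of 38 without RAB15, a pattern found in 23.5% of all tested genes. In 5 RAB genes they were above both, which also held in 23.5% of all tested genes. The groups overlapped in the other 22 RAB genes. RAB15 was counted here although its lower level chose the family, and these counts and medians are descriptions with no test. Leaving out WT replicate 1 moved the RAB median to -0.11, and scaling by library totals only moved it to -0.03. That scaling shifted the median of all genes by 0.16, and relative to all genes the RAB median lay at -0.17 under either scaling. Since these are bulk cultures, fewer cells that express a gene and less RNA per cell cannot be told apart.

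**Figure D1:**
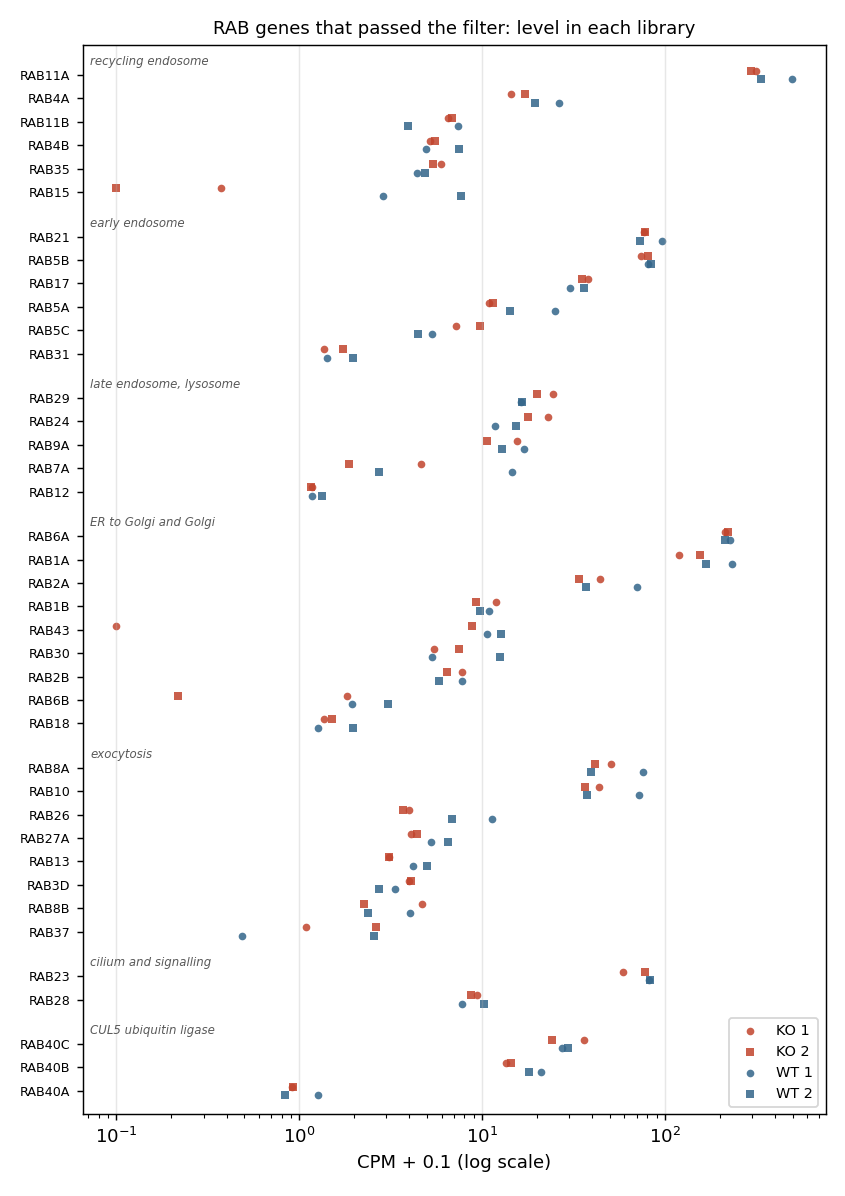
Level of each of the 39 RAB genes that passed the filter, as CPM + 0.1 on a log scale, grouped by role, with 1 point per library (circles replicate 1, squares replicate 2). RAB15 has 0.271 and 0 CPM in KO against 2.77 and 7.53 CPM in WT, while most other genes have KO and WT points close together.

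By edgeR 0 of 39 RAB genes had an adjusted p under 0.05, where the share over all 12269 tested genes was 0.00815%, which is 1 gene, NRIP1, lower in KO. With library totals as the only scaling, 15 genes were higher and 27 lower over all genes, and still 0 RAB genes passed. At an unadjusted edgeR p under 0.05 there were 4 RAB genes, or 3 of 38 without RAB15, against 11.2% of all tested genes. They were RAB15, RAB26 and RAB5A, lower in KO, and RAB5C, higher in KO. DESeq2 called 1 of the 42 RAB genes to which it gave an adjusted p, against 1.45% of all 12899 genes. That gene was RAB15, which this same contrast had brought forward, so the count is no separate evidence.

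**Figure D2:**
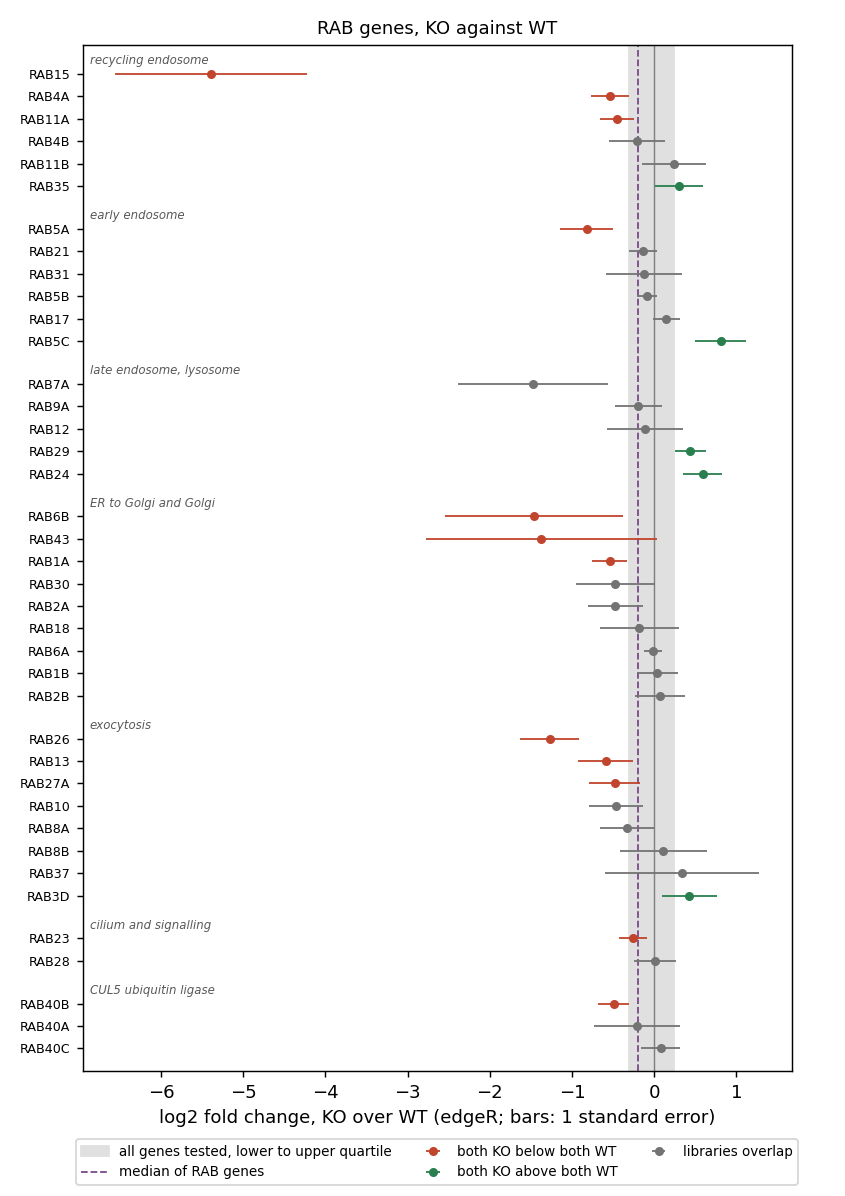
The log2 fold change (KO over WT, edgeR) of the 39 RAB genes that passed the filter, with bars of 1 standard error, coloured by whether the libraries of the groups overlap. The grey band runs from the lower to the upper quartile of all tested genes, from -0.30 to 0.24, and the dashed line marks the RAB median of -0.19.

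Recycling endosomes return internalised receptors to the surface. RAB15 (ENSG00000139998, chromosome 14) acts at early and recycling endosomes, where it has been described as slowing receptor uptake, and it is best known from neurons. Its estimated count was 3 and 0 in the KO libraries and 36 and 92 in the WT libraries. In CPM it stood at 0.271 and 0 in KO and at 2.77 and 7.53 in WT. The groups did not overlap, and the WT libraries themselves differed more than 2-fold. Summed over libraries, the scaled counts were 47.6-fold lower in KO, with an exact 95% interval of 15.9-fold to 234-fold that covers counting error only. The fitted log2 fold change was -5.39 (SE 1.17), and it was -9.18 with KO replicate 2 as the only KO library and -4.20 with KO replicate 1 as the only one. Against a count of 0 the fitted value depends on the small count that the fit adds.

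The RAB15 gene lies on the minus strand inside the readthrough gene CHURC1-FNTB, which runs on the plus strand. Libraries were stranded, but whether the counting used strand is not given in the sources used here, so reads of the overlapping pair may not be fully separated. CHURC1-FNTB had 1.63 and 4.17 CPM in KO and 13.6 and 4.34 CPM in WT, with a log2 fold change of -1.60 (SE 0.72; edgeR adjusted p = 0.485). Without WT replicate 1 it was -0.56, and without KO replicate 2 it was -2.45. Its high value was in WT replicate 1, whereas that of RAB15 was in WT replicate 2. FNTB, the beta subunit of farnesyltransferase that shares exons with the readthrough gene, had 4.43 and 4.40 CPM in KO and 1.54 and 2.46 CPM in WT (log2 fold change 1.14, SE 0.40; edgeR adjusted p = 0.420). CHURC1, a gene of the same readthrough pair, had 1.27 and 1.59 CPM in KO and 1.46 and 0.983 CPM in WT. MAX, the dimer partner of MYC and also a neighbour, had 38.4 and 32.2 CPM in KO and 27.3 and 31.7 CPM in WT. Over the 6 neighbours that passed the filter, the lowest KO value was the 1.27 CPM of CHURC1. The filter itself removes neighbours near 0, so this lowest value was in part set by it. GPX2 did not pass, with 1 and 0 counts in KO and 0 and 3 in WT. Nor did PPP1R36, with 0 and 0 counts in KO and 0 and 2 in WT. Of the words of 31 bases in RAB15 transcripts of GENCODE 29, 2.94% also occur, on either strand, in transcripts of other genes.

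**Figure D3:**
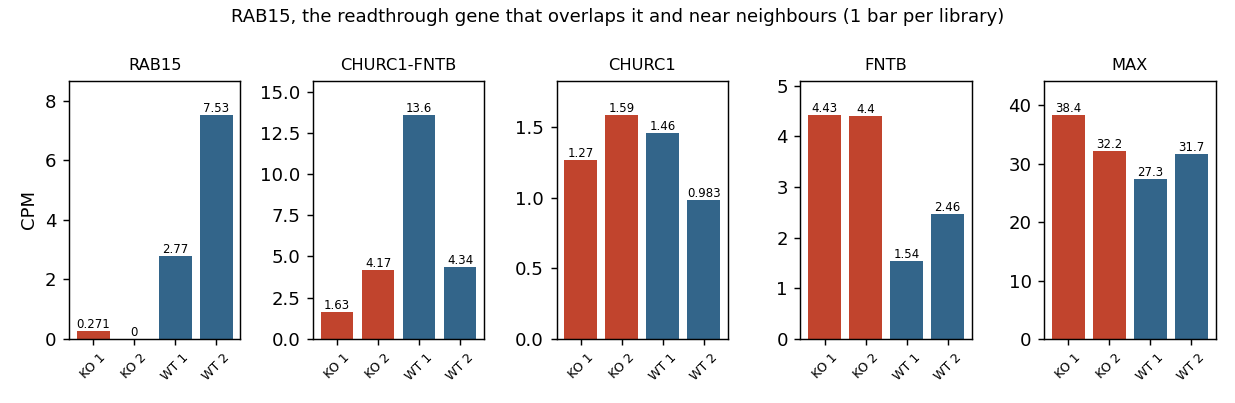
CPM of RAB15, of the readthrough gene CHURC1-FNTB that overlaps it on the other strand, and of the neighbours CHURC1, FNTB and MAX, with 1 bar per library and a scale of its own in each panel. RAB15 reaches 0.271 CPM at most in KO, while MAX stays between 27.3 and 38.4 CPM in the 4 libraries.

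Other genes of recycling differed far less. RAB11A, the main RAB of the recycling compartment, had 315 and 294 CPM in KO and 494 and 337 CPM in WT. This gave a log2 fold change of -0.45 (SE 0.21; edgeR adjusted p = 0.491). The groups did not overlap, and WT replicate 1 was the highest. Without WT replicate 2, RAB11A passed at -0.69 (edgeR adjusted p = 0.0243, against 0.486 to 0.789 under the other alternatives), and without WT replicate 1 the value was -0.15. Its paralogue RAB11B had 6.42 and 6.75 CPM in KO and 7.32 and 3.85 CPM in WT, so the groups overlapped. RAB4A, which drives fast recycling from early endosomes, had 14.3 and 17.0 CPM in KO and 26.2 and 19.3 CPM in WT (log2 fold change -0.54, SE 0.23; edgeR adjusted p = 0.473). Again the groups did not overlap, and the value was -0.30 without WT replicate 1 and -0.36 with library totals only. For the paralogue RAB4B the values were 5.06 and 5.46 CPM in KO and 4.85 and 7.37 CPM in WT. RAB35, a regulator of recycling and of cell contacts, had 5.87 and 5.28 CPM in KO and 4.32 and 4.75 CPM in WT, with both KO libraries above both WT libraries (log2 fold change 0.30, SE 0.29; edgeR adjusted p = 0.693).

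Among early endosome genes RAB5A was lower and RAB5C higher in both KO libraries, and neither passed the test. RAB5 directs fusion of early endosomes and recruits tethers and a lipid kinase. RAB5A had 10.8 and 11.4 CPM in KO and 25.0 and 14.2 CPM in WT, with a log2 fold change of -0.82 (SE 0.32; edgeR adjusted p = 0.445). RAB5C had 7.14 and 9.69 CPM in KO and 5.24 and 4.34 CPM in WT, with a log2 fold change of 0.81 (SE 0.31; edgeR adjusted p = 0.444). Neither pair of groups overlapped, and the difference between the paralogues was not tested. RAB5B had 73.6 and 81.2 CPM in KO and 81.0 and 83.4 CPM in WT, a log2 fold change of -0.09 (SE 0.12; edgeR adjusted p = 0.787) that became 0.07 with library totals as the only scaling. Without WT replicate 1 the log2 fold change of RAB5A was -0.35. Of the 31-base words of RAB5C transcripts 30.9% also occur in other genes, most of them in the overlapping AC099811.2, against 5.00% for RAB5A.

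The promoters of the 3 RAB5 paralogues are shown because the log2 fold changes of RAB5A and RAB5C had opposite signs. Neither gene passed the test, and a link between promoter and level was not tested. Each runs from 250 bases before to 50 after the start (RefSeq, GRCh38.p14), is printed on the strand of the gene, and carries in capitals each match to ACGTG on either strand. ACGTG is the core of the element bound by hypoxia-inducible factors, and it also lies within the palindrome CACGTG bound by MYC and related factors. The RAB5A promoter is chr3:19946847-19947146 on the plus strand, that of RAB5B is chr12:55973699-55973998 on the plus strand, and that of RAB5C is chr17:42154940-42155239 on the minus strand.
RAB5A: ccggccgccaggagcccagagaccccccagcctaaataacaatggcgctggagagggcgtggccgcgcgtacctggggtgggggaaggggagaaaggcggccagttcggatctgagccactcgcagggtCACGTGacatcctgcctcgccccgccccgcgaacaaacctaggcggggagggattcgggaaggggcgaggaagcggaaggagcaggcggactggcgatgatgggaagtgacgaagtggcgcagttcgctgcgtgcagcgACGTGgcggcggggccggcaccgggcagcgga
RAB5B: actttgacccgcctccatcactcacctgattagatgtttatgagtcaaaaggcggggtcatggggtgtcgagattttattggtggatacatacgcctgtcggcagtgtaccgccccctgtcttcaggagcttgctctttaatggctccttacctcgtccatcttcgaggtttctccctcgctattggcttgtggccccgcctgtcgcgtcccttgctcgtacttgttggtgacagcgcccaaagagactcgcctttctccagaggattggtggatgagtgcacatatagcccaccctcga
RAB5C: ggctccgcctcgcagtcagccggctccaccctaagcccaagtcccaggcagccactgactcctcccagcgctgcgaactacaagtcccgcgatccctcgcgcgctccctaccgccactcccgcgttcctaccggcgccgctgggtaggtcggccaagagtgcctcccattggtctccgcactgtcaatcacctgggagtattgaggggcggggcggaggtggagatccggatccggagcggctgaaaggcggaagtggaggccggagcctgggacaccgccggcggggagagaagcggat
The RAB5A window held 3 matches over the 2 strands, at 2 places, and the windows of RAB5B and RAB5C held 0. Over all 27305 genes with a promoter in the table, 21.6% held at least 1 match, as did 14 of the 42 RAB genes found there (33.3%). RAB15, RAB26 and RAB1A were among the RAB genes with no promoter there, and the comparison with all genes was not matched for gene type. The RAB promoters were rich in CpG. Their median GC content was 65.3%, against 58.3% over all genes, and 34 of 42 (81.0%) had an observed over expected CpG ratio above 0.6, against 48.9% of all promoters. A match in these letters does not show binding.

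**Figure D4:**
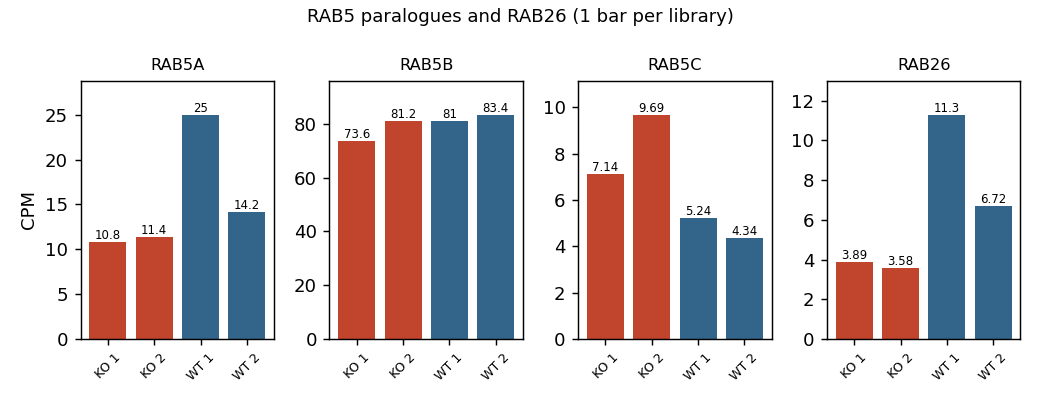
CPM of RAB5A, RAB5B, RAB5C and RAB26, with 1 bar per library and a scale of its own in each panel. RAB5A and RAB26 are lower in both KO libraries than in both WT libraries, RAB5C is higher in both, and RAB5B lies between 73.6 and 83.4 CPM throughout.

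The other tested early endosome genes had overlapping groups. RAB21, which traffics integrins, had 76.4 and 77.9 CPM in KO and 96.9 and 73.0 CPM in WT (log2 fold change -0.14, SE 0.17; edgeR adjusted p = 0.754). This small value became 0.04 with library totals only and 0.08 without WT replicate 1. The remaining tested genes of this group, RAB17 and RAB31, had log2 fold changes of 0.15 and -0.12.

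Exocytic RABs act in the last steps toward the plasma membrane, and here RAB26 stood out. RAB26, a RAB of secretory and synaptic vesicles (chromosome 16), had 43 and 61 counts in KO and 147 and 82 counts in WT. This made 3.89 and 3.58 CPM in KO and 11.3 and 6.72 CPM in WT. The groups did not overlap, the KO libraries were close to each other, and WT replicate 1 was the highest. The log2 fold change came to -1.27 with a standard error of 0.36, and the adjusted p was 0.372 by edgeR and 0.332 by DESeq2. Without WT replicate 1 the value was -0.85. RAB13, which serves tight junctions, had 2.98 and 2.99 CPM in KO and 4.08 and 4.91 CPM in WT. RAB27A, a RAB of secretory granules and exosomes, had 3.98 and 4.29 CPM in KO and 5.16 and 6.39 CPM in WT. Both genes were lower in KO in all pairs of libraries, with log2 fold changes of -0.59 and -0.48 (edgeR adjusted p = 0.533 and 0.566).

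RAB8A, RAB10 and RAB2A shared 1 high library, WT replicate 1. This library was the highest in 15 of the 39 tested RAB genes and in 30.6% of all tested genes. RAB8A, which acts in polarised secretion and cilium growth, had 50.5 and 41.4 CPM in KO and 75.7 and 39.5 CPM in WT. RAB10, known from glucose transporter delivery, had 43.5 and 36.5 CPM in KO and 72.5 and 37.4 CPM in WT. For RAB2A, which tethers membranes between ER and Golgi, the values were 44.2 and 33.7 CPM in KO and 70.3 and 37.1 CPM in WT. In each of the 3 genes WT replicate 1 was the highest library, while WT replicate 2 lay between the KO libraries for RAB10 and RAB2A and below both for RAB8A. The log2 fold changes were -0.33, -0.46 and -0.47 (edgeR adjusted p = 0.700, 0.609 and 0.610), and without WT replicate 1 they were 0.22, 0.09 and 0.07. RAB8B had 4.61 and 2.17 CPM in KO and 3.93 and 2.29 CPM in WT, and RAB3D, of regulated secretion, had 3.89 and 3.99 CPM in KO and 3.24 and 2.62 CPM in WT. RAB3D was higher in both KO libraries (log2 fold change 0.43, SE 0.34; edgeR adjusted p = 0.635). RAB37 overlapped between groups, at 0.385 to 2.52 CPM over the 4 libraries.

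In the ER and Golgi group RAB1A was lower in both KO libraries and RAB6A overlapped between groups. RAB1A, needed for transport from ER to Golgi, had 120 and 155 CPM in KO and 232 and 168 CPM in WT (log2 fold change -0.54, SE 0.21; edgeR adjusted p = 0.452), and the value was -0.29 without WT replicate 1. Its paralogue RAB1B had 11.8 and 9.22 CPM in KO and 10.8 and 9.66 CPM in WT (log2 fold change 0.04, SE 0.25; edgeR adjusted p = 0.959). RAB6A, which acts in retrograde traffic at the Golgi, had 213 and 221 CPM in KO and 226 and 212 CPM in WT. Of its 31-base words 18.2% occur in RAB6D. Its log2 fold change of -0.01 had a standard error of 0.11 (edgeR adjusted p = 0.965), and with library totals only it was 0.15. The neuronal paralogue RAB6B had 19 and 2 counts in KO and 24 and 36 in WT, and its log2 fold change of -1.46 (SE 1.08; edgeR adjusted p = 0.615) was -0.48 without KO replicate 2, -4.25 without KO replicate 1 and -2.45 with limma-voom. RAB2B, RAB18 and RAB30 had overlapping groups, with log2 fold changes between -0.47 and 0.07.

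RAB43, a RAB of the Golgi, shares most of its sequence with a readthrough gene. It had 0 and 148 counts in KO and 136 and 154 counts in WT. The count was listed at 0 in KO replicate 1 and was similar in the other 3 libraries. The readthrough gene ISY1-RAB43, on the same strand, had 661 and 746 counts in KO and 587 and 760 in WT. In GENCODE 29, 78.4% of the 31-base words of RAB43 transcripts also occur in ISY1-RAB43. Added together the locus had 59.7 and 52.5 CPM in KO and 55.7 and 74.8 CPM in WT. RAB43 alone had a log2 fold change of -1.37 (SE 1.41; edgeR adjusted p = 0.707), which was -0.41 without KO replicate 1, -10.13 without KO replicate 2 and -0.22 for the summed locus. It was -3.70 with limma-voom and -2.50 with a replicate block. Its share of the locus was 0% and 16.6% in KO and 18.8% and 16.8% in WT.

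**Figure D5:**
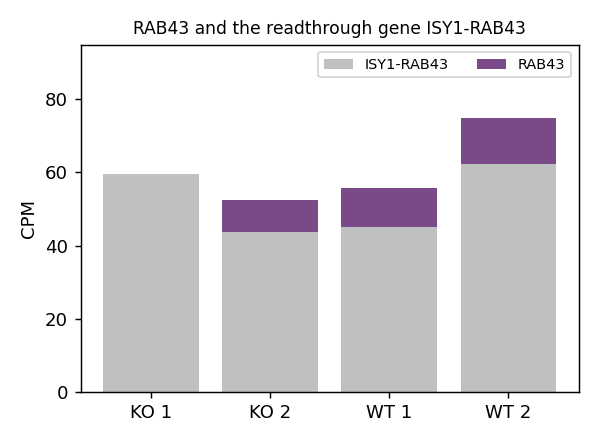
CPM assigned to RAB43 (purple) and to the readthrough gene ISY1-RAB43 (grey), stacked, with 1 bar per library. RAB43 is at 0 in KO replicate 1 and at 8.69 to 12.6 CPM in the other 3 libraries, while the stacked level runs from 52.5 to 74.8 CPM.

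In 2 of the 5 tested late endosome and lysosome genes both KO libraries lay above both WT libraries, against 23.5% of all tested genes. RAB24, linked to autophagy, had 22.7 and 17.8 CPM in KO and 11.6 and 15.2 CPM in WT, with a log2 fold change of 0.59 (SE 0.24; edgeR adjusted p = 0.462). It overlaps MXD3 on the same strand, and 40.7% of its 31-base words occur in that gene. RAB29, which recruits the kinase LRRK2 to membranes, had 24.4 and 19.8 CPM in KO and 16.2 and 16.5 CPM in WT (log2 fold change 0.44, SE 0.19; edgeR adjusted p = 0.476). RAB7A, the main RAB of late endosomes, had 50 and 30 counts in KO and 188 and 32 counts in WT. The high value was again WT replicate 1, and the other libraries lay between 1.76 and 4.52 CPM. The log2 fold change of -1.47 (SE 0.91; edgeR adjusted p = 0.558) became 0.24 without WT replicate 1, and it ran to -2.27 without KO replicate 1. RAB9A and RAB12 had overlapping groups, with log2 fold changes of -0.19 and -0.11.

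The remaining groups had 1 gene each in which both KO libraries were lower. RAB23, a negative regulator of Hedgehog signalling, had 58.8 and 78.2 CPM in KO and 81.7 and 83.0 CPM in WT (log2 fold change -0.26, SE 0.17; edgeR adjusted p = 0.573), and the value was -0.07 without KO replicate 1 and -0.11 with library totals only. RAB28, a ciliary RAB, had 9.31 and 8.57 CPM in KO and 7.71 and 10.1 CPM in WT. The RAB40 proteins carry a SOCS box and serve CUL5 ubiquitin ligases. RAB40B had 13.5 and 14.3 CPM in KO and 21.0 and 17.9 CPM in WT, lower in both KO libraries (log2 fold change -0.49, SE 0.19; edgeR adjusted p = 0.451), and the value was -0.32 with library totals only. RAB40C had 36.0 and 24.1 CPM in KO and 27.2 and 29.4 CPM in WT, and RAB40A had 0.813 and 0.822 CPM in KO and 1.16 and 0.737 CPM in WT. Of the 31-base words of RAB40A, 15.2% occur in the near copy RAB40AL.

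Other named genes also share 31-base words with further genes of GENCODE 29, where a match on either strand was counted. The shared part was 57.4% for RAB23, all of it with BAG2, 43.3% for RAB4B, 42.5% for RAB8A, 42.3% for RAB1B and 21.0% for RAB1A. BAG2 and the genes that share most with RAB8A, RAB1B and RAB1A lie on the opposite strand. Such sharing makes the estimated counts less certain only if the counting ignored strand, which is not given. RAB4B shares most with RAB4B-EGLN2 on the same strand, which makes the RAB4B count less certain.

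The other 12 RAB genes did not pass the filter. RAB14, RAB3C and RAB41 were listed at 0 in all libraries. RAB14 acts between recycling endosomes and the Golgi in most cell types, and 0% of its 31-base words occur in other genes of GENCODE 29. Why its count was 0 was not tested, and a count of 0 here does not show that the gene is silent. The other 9 had at most 16 counts in any library. They were RAB19, RAB22A, RAB27B, RAB33B, RAB34, RAB36, RAB38, RAB3A and RAB42. Counts of 3, the limit that a count of 0 allows, correspond to 0.271 and 0.176 CPM in the KO libraries and to 0.231 and 0.246 CPM in the WT libraries.

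Proteins that act on or with RABs, and related small GTPases outside the family, were examined as 5 lists. For short these are called the lists of RAB regulators. By edgeR and by DESeq2 0 members of any list passed, and 19 of the 168 genes tested over the lists had an unadjusted edgeR p under 0.05, against 11.2% of all genes. Exchange factors, which load GTP, had 34 tested genes with a median log2 fold change of -0.06, and both KO libraries lay above both WT libraries in 10 and below in 11. Over all tested genes 23.5% lay above and 23.5% below in this way. DENND5B had 52.5 and 52.0 CPM in KO and 76.1 and 69.2 CPM in WT (edgeR adjusted p = 0.349). DENND4B had 15.5 and 15.1 CPM in KO and 9.25 and 10.2 CPM in WT, and DENND6A had 1.90 and 0.705 CPM in KO and 6.40 and 3.52 CPM in WT (edgeR adjusted p = 0.388 and 0.395). GTPase-activating proteins had 37 tested genes with a median of 0.09, above in both KO libraries in 13 and below in 5, against 23.5% each way over all tested genes. TBC1D24 had 142 and 130 CPM in KO and 83.9 and 104 CPM in WT, with a log2 fold change of 0.53 (SE 0.15; edgeR adjusted p = 0.374). SGSM3 and TBC1D2 had log2 fold changes of 0.52 and 0.88 (edgeR adjusted p = 0.412 and 0.441).

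Of the 14 tested genes of prenylation, escort and recycling, both KO libraries lay above both WT libraries in 2 and below in 1 (23.5% each way over all tested genes), with a median of 0.04. FNTB, described with the RAB15 locus, had the smallest p of this list. The escort protein CHM had 6.96 and 10.2 CPM in KO and 4.78 and 6.47 CPM in WT (log2 fold change 0.61, SE 0.34; edgeR adjusted p = 0.526), and the value was 0.31 without KO replicate 2. GDI2, which extracts RABs from membranes, had 47.0 and 33.3 CPM in KO and 70.0 and 39.6 CPM in WT (log2 fold change -0.45, SE 0.33; edgeR adjusted p = 0.610), and the value was 0.02 without WT replicate 1. Effectors had 61 tested genes and a median of 0.01, with 14 above and 17 below in both KO libraries (23.5% each way over all tested genes). BICD2, the dynein adaptor that RAB6 recruits, had 135 and 140 CPM in KO and 93.8 and 101 CPM in WT, with a log2 fold change of 0.49 (SE 0.11; edgeR adjusted p = 0.307). PLEKHM1, a RAB7 effector at lysosomes, had 5.60 and 16.0 CPM in KO and 2.93 and 2.70 CPM in WT (log2 fold change 1.95, SE 0.56; edgeR adjusted p = 0.376), and the value was 0.99 without KO replicate 2. GCC2, a golgin, had 19.7 and 15.5 CPM in KO and 26.5 and 27.3 CPM in WT (log2 fold change -0.61, SE 0.19; edgeR adjusted p = 0.389).

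Related small GTPases outside the family had 22 tested genes with a median of -0.05, with 5 above and 5 below in both KO libraries (23.5% each way over all tested genes). ARF5, a Golgi ARF, had 15.3 and 13.5 CPM in KO and 43.6 and 21.1 CPM in WT (log2 fold change -1.17, SE 0.37; edgeR adjusted p = 0.393). WT replicate 1 was the highest library, and ARF5 passed without WT replicate 2 (edgeR adjusted p = 0.0170, against 0.163 to 0.753 under the other alternatives). Without WT replicate 1 its log2 fold change was -0.56.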

How the data were processed

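TRIzol RNA was freed of ribosomal RNA and sequenced as stranded paired-end libraries on a HiSeq instrument, per the labels' protocols. The submitters' processing notes list Salmon 1.10.1 and hg19. Annotation, filters and strand setting are not stated there. Deposited by the authors were whole numbers per gene, treated here as rounded estimated counts, and RPKM of the same libraries. The gene lengths implied by the deposited RPKM had a median of 0.700 of the annotated gene span over 48 RAB genes, so RPKM was used for that check alone. For RAB15 the implied length was 24.3 kb of a span of 27.4 kb, so the words of its transcripts may not cover all that was counted. The same limit holds for other genes with shared words, such as RAB23 (34.0 kb of 35.3 kb) and RAB43 (32.5 kb of 35.2 kb). CPM, which is not divided by length, ranked genes to choose which to name. It was also summed over genes, and in such sums and shares a long gene weighs more.

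Genes were tested with edgeR 4.0.16 in R 4.3.3 (quasi-likelihood F-test, TMM factors, filterByExpr, genotype as the only term), with Benjamini-Hochberg adjustment over all 12269 tested genes and a threshold of 0.05. DESeq2 1.42.0 (threshold 0.05 also for its own filter), limma-voom (limma 3.58.1), other scalings, no filter, leaving out each library and a replicate block were the alternatives. CPM are estimated counts scaled by library size times the TMM factor, and standard errors are the log2 fold change divided by the square root of F. The code was tested on simulated data. The labels do not say whether libraries came from separate cultures, so p-values measure the spread between these libraries, which may be technical.

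The RAB genes and the lists were chosen with earlier results of these data known. Genes named with values were RAB15, RAB genes with an unadjusted edgeR p or an adjusted p of either tool under 0.05, the 2 genes of highest mean CPM in each role group, their lettered paralogues, and the 3 genes of smallest p in each list. RAB2A, RAB7A, RAB43, RAB35, RAB13, RAB27A and RAB3D, and the neighbours and partners of RAB15 and RAB43, were singled out after their values were seen. REP15 was not analysed here. The values of 2 genes of these lists are not reported here. Identifiers, strands and overlaps come from GENCODE 29 (GRCh38), where 51 of 51 RAB symbols matched; promoter sequences come from RefSeq (GRCh38.p14).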

Additional observations from a re-analysis of the deposited data

How the results depend on the processing

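For the 48 genes named with a test, 285 of 290 values under the alternatives other than leaving out a library kept their direction and their side of the threshold. The exceptions in direction were RAB21 (0.04), RAB5B (0.07), RAB6A (0.15) and ISY1-RAB43 (0.08) with library totals only, and RAB8B (-0.01) with limma-voom. Over all genes the number called was 187 with DESeq2, 42 with library totals only and 34 with no filter, against 1. DESeq2 called 1 RAB gene, and the RAB median was -0.03 with library totals only. With a replicate block 1 gene was called over all genes, 0 RAB genes were called, and the RAB median was -0.17. Deviations of same-numbered libraries had a correlation of 0.0672 across genes, under the 0.1 taken as a sign of pairing, and 2 pairs cannot show whether the libraries shared a culture or preparation.

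Leaving out each library gave 0 to 575 called genes in all (0 without either KO replicate, where 914 and 959 had an unadjusted edgeR p under 0.05), 0 to 1 among RAB genes and 0 to 5 over the lists of RAB regulators, with the highest counts without WT replicate 2. The RAB median ran from -0.27 to -0.11 and the log2 fold change of RAB15 from -9.18 to -4.20. It crossed 0 for RAB10 (-0.85 to 0.09), RAB11B (-0.14 to 0.77), RAB1B (-0.15 to 0.21), RAB21 (-0.32 to 0.08), RAB28 (-0.17 to 0.23), RAB40A (-0.48 to 0.15), RAB40C (-0.23 to 0.35), RAB4B (-0.48 to 0.13), RAB6A (-0.05 to 0.03), RAB8A (-0.71 to 0.22), RAB8B (-0.52 to 0.56), RAB2A (-0.84 to 0.07), RAB7A (-2.27 to 0.24), GDI2 (-0.79 to 0.02), CHURC1 (-0.02 to 0.54) and ISY1-RAB43 (-0.29 to 0.20). With 1 library in a group, that library is assumed to vary like the other group. RAB11A and ARF5 passed the threshold without WT replicate 2. The cause of these differences was not tested. Adding readthrough counts to RAB43 was chosen after seeing the data. Low counts, as for RAB15 in KO, limit precision.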
